A study of Mus musculus with 18 samples.

Results

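The mitosis genes described here are 44 genes that act between entry into mitosis and the separation of the daughter cells. They were chosen by name for their known role in division, with earlier results of these data known, and were divided into 8 groups by role. A probe set listed with 1 gene symbol was found for 43 of the 44, and all 43 passed the filter on dim probe sets and were tested among 12257 genes. Ccnb1, which encodes cyclin B1, matched no such probe set, so its level was not analysed here and it enters only the promoter counts. The cells were RAW cells, a mouse macrophage line, cultured in medium or stimulated with R848, an agonist of Toll-like receptor 7. Stimulated cells received R848 alone, R848 with apilimod at 1 uM or R848 with API09 at 1 uM. Apilimod inhibits the lipid kinase PIKfyve, and the series design names API09 as its inactive analog. The labels give R848 at 0.1 mM in all stimulated arms, a dose that is high for this agonist and may be an error of unit. The 18 arrays comprised 2 of medium at 0 h and 1 for each of medium, R848, R848+apilimod and R848+API09 at 1, 3, 7 and 22 h. No label names an apilimod or API09 arm without R848, so each compound was measured in stimulated cells.

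Cells enter mitosis when Cdk1, bound to cyclin A or B, is switched on by Cdc25 phosphatases and reinforced by Polo-like and Aurora kinases. Kinetochores on the centromeres then attach to spindle microtubules, and a checkpoint holds back the anaphase-promoting complex until all are attached. Once Cdc20 activates that complex, cyclin B and securin are destroyed, separase opens cohesin, and the central spindle and a contractile ring divide the cell. Transcription of most of these genes peaks in G2 and mitosis, so in bulk RNA their level also follows the share of cells in those phases. RAW cells divide continuously in culture. In such bulk samples fewer cells with the RNA and less RNA per cell cannot be told apart.

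Unless stated otherwise, a level is the deposited linear intensity of the probe set with the highest mean for the gene, and a difference is on the scale of log2(intensity + 16), given with its standard error (SE). For tests within an hour, the array with R848 alone and the array with R848+API09 together formed the 2 R848 control arrays. These tests were made with limma over all 12257 genes, with Benjamini-Hochberg adjustment, and a gene was called at a two-sided adjusted p of 0.05. No label states separate cultures for the arrays, so the p-values here rest on the spread among the arrays at hand, and that spread may be technical. Within hours it comes from the 2 medium arrays at 0 h and from the R848 and R848+API09 arrays of each hour. The latter differ in treatment, so any effect of API09 enters the SE and p-values of these tests. Of 12 macrophage markers, 11 were above the filter level on all 18 arrays and Mertk was above it on none. The summed intensity of the 12 was 45805 to 52224 on the medium arrays, 40915 to 52916 on the R848 control arrays and 40003 to 52920 with apilimod, with the lowest values at 22 h. Of the 10 markers of other cell types that were measured, Cd3e and Epcam alone were above the filter level, neither over 61.0. The 3 stimulated arrays at 22 h stood apart in their upper quartile of intensity, at 87.0 with API09, 100.9 with apilimod and 103.6 with R848, against 110.5 to 118.6 on the other 15.

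Promoter sequences from RefSeq (GRCm38.p6), reaching from 250 bases before a listed gene start to 50 bases after it, were at hand for 36 of the 44 genes. Only the first listed window of a gene was used, and its start need not be the outermost start of the gene. They were searched for 2 short elements known from promoters of genes that peak in G2 and mitosis. The first, TTTGAA, is the core of the cell cycle homology region, which MuvB complexes bind. On the opposite strand it reads TTCAAA. The second is the box bound by the factor NF-Y, with the letters CCAAT. On the opposite strand that box reads ATTGG. Both strands were searched, and matches of the 2 elements can share no more than 1 end letter. TTTGAA was in 25 of the 36 promoters (69.4%), against 18.1% of 27025 promoters of all genes and 11.7% of 9898 promoters of the other genes tested. CCAAT was in 26 of the 36 (72.2%), against 37.9% of all promoters. Both were in 21 (58.3%, against 7.12% of all promoters), and 17 held CCAAT at least at 2 places. Neither was found in 6 (Plk4, Mad2l1, Pttg1, Nuf2, Birc5 and Nusap1), which says only that these letters are not in this window. The window of Pttg1 lies inside the gene as annotated (chr11:43420244-43427463) and not at its outermost start. It therefore says nothing of the promoter at that outermost start. Of 45 promoters of other mitosis genes, outside the 44, 57.8% held TTTGAA, 66.7% held CCAAT and 42.2% held both. Of 30 promoters of DNA replication genes, which serve the copying of DNA ahead of mitosis, 13.3% held TTTGAA, 56.7% held CCAAT and 10% held both. The following 6 windows show both patterns, the first 4 with both elements and the last 2 with neither. The last 2 are those of Nusap1, the gene with the largest fall under R848 at 7 h, and Pttg1, the gene with the smallest. Each runs 5′ to 3′ on the strand of the gene, with each match of either element, on either strand, in capitals.
Cdk1, chr10:69352863-69353162 (- strand): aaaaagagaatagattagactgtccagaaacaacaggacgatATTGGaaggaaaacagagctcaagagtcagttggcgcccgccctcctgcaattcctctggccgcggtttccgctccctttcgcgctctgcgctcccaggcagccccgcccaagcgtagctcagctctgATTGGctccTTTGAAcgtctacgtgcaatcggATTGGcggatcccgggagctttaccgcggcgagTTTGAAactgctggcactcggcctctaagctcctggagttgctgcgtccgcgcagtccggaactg
Ccnb2, chr9:70421505-70421804 (- strand): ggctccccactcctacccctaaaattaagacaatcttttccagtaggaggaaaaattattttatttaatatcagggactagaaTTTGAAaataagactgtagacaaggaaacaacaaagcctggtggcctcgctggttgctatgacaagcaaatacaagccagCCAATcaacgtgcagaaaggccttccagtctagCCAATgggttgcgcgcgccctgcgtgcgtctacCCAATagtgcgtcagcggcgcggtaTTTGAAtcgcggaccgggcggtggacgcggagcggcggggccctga
Plk1, chr7:122159185-122159484 (+ strand): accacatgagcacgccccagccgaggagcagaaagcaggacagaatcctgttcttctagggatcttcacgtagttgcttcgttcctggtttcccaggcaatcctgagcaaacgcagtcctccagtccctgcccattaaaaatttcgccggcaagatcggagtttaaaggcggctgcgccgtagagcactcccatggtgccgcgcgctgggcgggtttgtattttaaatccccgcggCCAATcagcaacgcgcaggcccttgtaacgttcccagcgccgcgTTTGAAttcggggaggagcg
Cdc20, chr4:118437294-118437593 (- strand): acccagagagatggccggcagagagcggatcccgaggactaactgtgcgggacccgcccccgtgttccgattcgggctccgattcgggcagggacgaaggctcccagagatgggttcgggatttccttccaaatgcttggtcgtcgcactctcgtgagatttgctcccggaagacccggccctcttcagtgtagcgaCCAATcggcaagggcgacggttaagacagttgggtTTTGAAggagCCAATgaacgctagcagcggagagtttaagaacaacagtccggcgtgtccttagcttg
Nusap1, chr2:119618048-119618347 (+ strand): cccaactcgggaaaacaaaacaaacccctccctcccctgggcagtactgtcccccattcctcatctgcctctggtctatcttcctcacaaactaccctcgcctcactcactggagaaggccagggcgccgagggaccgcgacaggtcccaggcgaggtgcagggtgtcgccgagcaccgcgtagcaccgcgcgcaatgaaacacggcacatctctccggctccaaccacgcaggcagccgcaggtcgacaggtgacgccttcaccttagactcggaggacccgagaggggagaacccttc
Pttg1, chr11:43425932-43426231 (- strand): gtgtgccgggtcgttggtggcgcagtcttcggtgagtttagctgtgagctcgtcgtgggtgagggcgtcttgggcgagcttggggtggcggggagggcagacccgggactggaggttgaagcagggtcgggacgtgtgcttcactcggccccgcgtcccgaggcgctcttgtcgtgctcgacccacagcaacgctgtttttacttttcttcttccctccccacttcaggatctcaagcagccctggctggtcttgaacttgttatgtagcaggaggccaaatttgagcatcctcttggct

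Stimulation with R848 lowered the mitosis genes within hours. At 1 h none of the 43 was called, at 3 h 29 had fallen, at 7 h all 43 had fallen, with a median 1.97-fold lower level than in medium, and at 22 h 39 were lower. No mitosis gene rose under R848 at any hour. Among all genes tested, 0.702% were called at 1 h in either direction, and 9.19%, 18.5% and 29.1% were called lower at 3, 7 and 22 h. At 1 h no mitosis gene passed an unadjusted p of 0.05 in limma either. The median difference of the mitosis genes from medium was -0.44 at 3 h, -0.98 at 7 h and -0.58 at 22 h, against -0.03, -0.04 and -0.03 for all genes. The largest difference at 3 h was that of Foxm1 (-0.86 ± 0.093, adjusted p = 7.59e-05), the transcription factor of many G2 and mitosis genes. Nusap1, a microtubule-bundling protein of the spindle, had the largest at 7 h (-1.44 ± 0.089, adjusted p = 5.62e-07). Cenpf, a large protein of the outer kinetochore, had the largest at 22 h (-1.33 ± 0.18, adjusted p = 0.000169). Pttg1, which encodes securin, had the smallest difference at 3 h (-0.04 ± 0.084, not called) and at 7 h (-0.27 ± 0.084, adjusted p = 0.0301). All 3 stimulated arrays at 7 h lay below all 6 medium arrays for 40 of the 43 genes, the exceptions being Cenpe, Tpx2 and Kif23. Among all genes 21.2% showed that order. At 22 h both R848 control arrays lay below all 6 medium arrays for 41 of the 43, with Tpx2 and Racgap1 as exceptions, against 30.3% of all genes. Each of the 82 kept probe sets of the 43 genes was lower under R848 at 7 h.

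**Figure D1:**
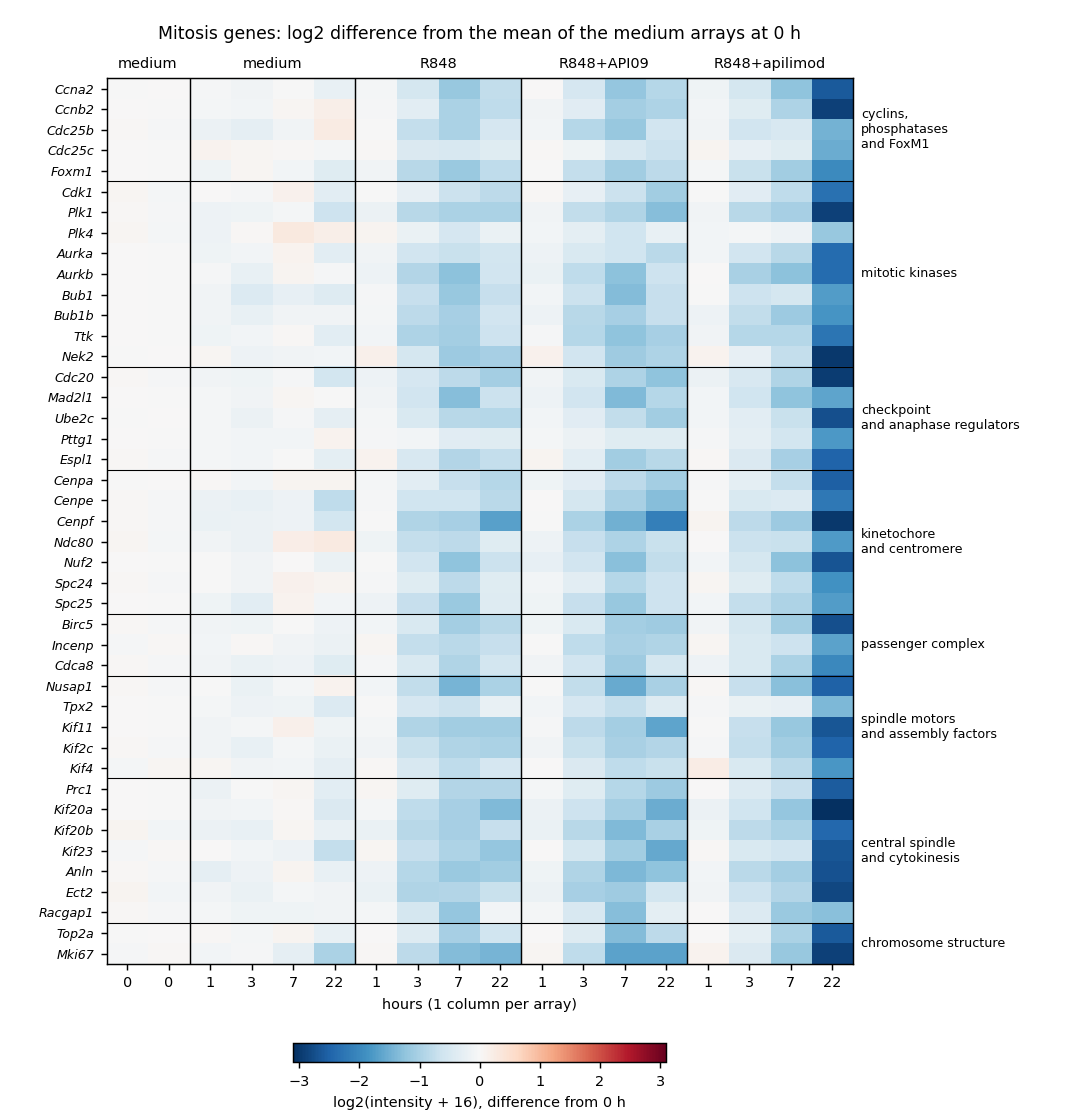
Difference in log2(intensity + 16) from the mean of the medium arrays at 0 h, with 1 column for each of the 18 arrays (arm above, hour below) and 1 row for each of 43 mitosis genes, grouped by role; blue is lower and red is higher. The stimulated columns turn blue from 3 h, and the R848+apilimod column at 22 h is the darkest.

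Apilimod changed this course late. At 3 h 1 mitosis gene was higher with apilimod than on the R848 control arrays and at 7 h 5 were, while at 22 h all 43 were lower, with a median 2.68-fold lower level. No mitosis gene was called at 1 h in limma, nor did any pass an unadjusted p of 0.05, and 0% of all genes were called. The share of all genes called higher was 5.07% at 3 h and 9.81% at 7 h, and the share called lower at 22 h was 14.3%. The 5 genes at 7 h are 11.6% of the 43, close to that background. Median differences of the mitosis genes from the R848 controls were 0.02, 0.05, 0.10 and -1.42 at the 4 hours, and the median of all genes at 22 h was 0.03. The gene called at 3 h was Nek2, a centrosome kinase (0.31 ± 0.084, adjusted p = 0.0402), although the highest difference was that of Mki67 (0.35 ± 0.13, adjusted p = 0.159). This count became 0 without either medium array at 0 h and 4 without the R848+API09 array at 22 h, and the 5 at 7 h became 10 higher and 1 lower (Pttg1) without that array. The share of all genes called was not counted in the fits with arrays left out. At 22 h differences ran from -2.19 ± 0.11 for Ect2 to -0.83 ± 0.11 for Incenp. The R848+apilimod array at 22 h was below the other 17 arrays for 42 of the 43 genes, the exception being Racgap1, against 15.3% of all genes. Of the 82 probe sets, 77 were lower with apilimod at 22 h. The apilimod effect itself differed between the hours. Subtracting the effect at 7 h from that at 22 h gave a lower value for 43 of 43 genes called (8.77% of all genes called lower), from -2.37 ± 0.12 for Nek2 to -0.94 ± 0.14 for Mad2l1. Beside these values, the mean log2 intensity of the 3 probe sets for 18S RNA was 9.45 on the apilimod array at 22 h and 8.69 on the R848 array, and 10.53 on the API09 array. The part of RNA amount or quality in the result was not tested.

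**Figure D2:**
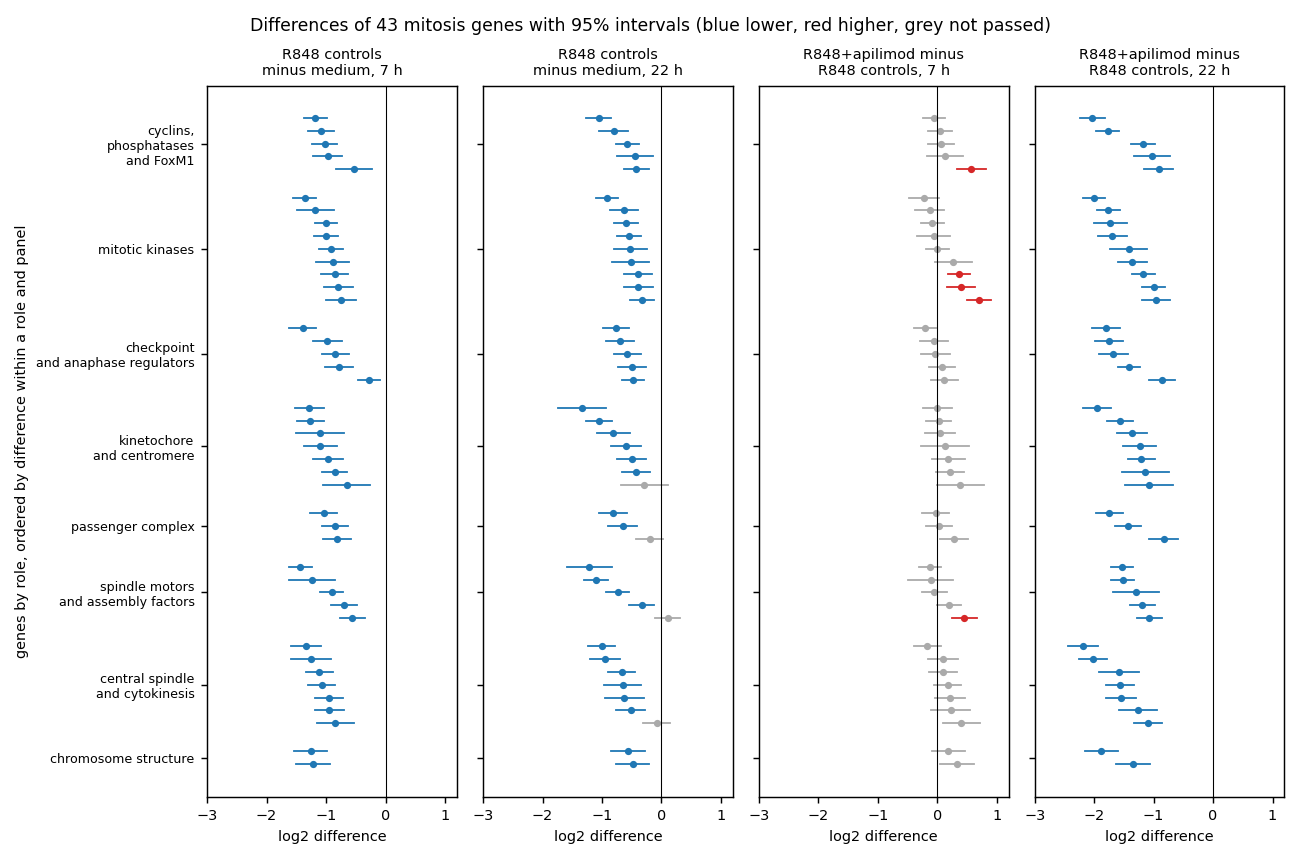
Log2 differences of the 43 mitosis genes with 95% intervals from the fit, by role, for R848 controls against medium and R848+apilimod against R848 controls at 7 and 22 h; blue is called lower, red called higher and grey not passed. All 43 points are blue in the first and last panels, and 5 are red in the third.

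The genes that start mitosis, namely cyclins A2 and B2, the Cdc25 phosphatases B and C and FoxM1, had median differences of -1.03 under R848 at 7 h, -0.58 under R848 at 22 h and -1.18 for apilimod against R848 controls at 22 h. Where 4 values follow each other, they are those at 1, 3, 7 and 22 h. Ccna2 read 2053 and 2069 in medium at 0 h and 2003, 1918, 2050.2 and 1741 in medium at the later hours. Under R848 Ccna2 read 1964, 1402, 904 and 1207, with API09 added 2065, 1421, 889 and 1118, and with apilimod added 1892, 1418, 863 and 328. Ccna2, the cyclin that partners Cdk2 and then Cdk1, was thus lower in all stimulated arrays from 3 h than in any medium array and lowest with apilimod at 22 h. Its difference from medium was -1.18 ± 0.087 at 7 h (adjusted p = 2.01e-06), and that of apilimod from the R848 controls at 22 h was -1.78 ± 0.087 (adjusted p = 1.52e-07). Foxm1 read 235 and 232 in medium at 0 h and 212, 243, 217 and 175 in medium at the later hours. Under R848 Foxm1 read 216, 120.4, 96.1 and 128, with API09 added 233, 134, 101 and 126, and with apilimod added 221, 139.7, 103 and 47.2. Foxm1 was already lower at 3 h in the 3 stimulated arrays, which lay below all medium arrays from then on. Ccnb2, a cyclin B, had the largest difference of the 43 genes when apilimod was set against medium at 22 h (-3.08 ± 0.11, adjusted p = 8.4e-09), and read 2004 in medium and 222 with apilimod. Cdc25b, which activates Cdk1 at the centrosome, was 1 of the 5 genes higher with apilimod at 7 h. It read 136 with R848, 117 with API09 and 195 with apilimod, and the difference was 0.58 ± 0.11 (adjusted p = 0.00261). At 22 h Cdc25b was lower with apilimod (-0.92 ± 0.11, adjusted p = 7.5e-05).

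The 9 mitotic kinases had median differences of -0.91 under R848 at 7 h, -0.52 under R848 at 22 h and -1.42 for apilimod against R848 controls at 22 h. Cdk1 read 2185 and 2029.8 in medium at 0 h and 2114, 2041, 2314 and 1687 in medium at the later hours. Under R848 Cdk1 read 2101, 1755, 1332 and 1191, with API09 added 2144, 1756, 1320.2 and 989, and with apilimod added 2088, 1651, 1214 and 413. Cdk1, the kinase that drives entry into mitosis, kept about its level at 1 h, was lower in the stimulated arrays than in medium of the same hour from 3 h, and at 22 h was lowest with apilimod. The fitted differences were -0.80 ± 0.11 for R848 at 7 h (adjusted p = 0.000231) and -1.36 ± 0.11 for apilimod at 22 h (adjusted p = 4.66e-06). Plk1 read 749 and 716 in medium at 0 h and 653, 668, 696 and 466 in medium at the later hours. Under R848 Plk1 read 639.9, 397, 360.3 and 359.9, with API09 added 676, 426, 376 and 284, and with apilimod added 683, 398, 352 and 85.4. Plk1, the Polo-like kinase of spindle poles and kinetochores, was lower in medium at 22 h than at the earlier hours, and the apilimod array at 22 h was the lowest of the 18. Aurka read 1544 and 1541 in medium at 0 h and 1409, 1458, 1652 and 1235 in medium at the later hours. Under R848 Aurka read 1433, 1013, 954 and 1033, with API09 added 1389, 1109.8, 1002 and 857, and with apilimod added 1447, 1013, 836 and 280.1. Aurka encodes the Aurora kinase of the spindle poles, and its stimulated arrays at 3, 7 and 22 h lay below all 6 medium arrays.

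Aurkb read 736 and 735 in medium at 0 h and 721, 624, 786 and 722 in medium at the later hours. Under R848 Aurkb read 660.0, 387, 294 and 483, with API09 added 635, 423, 297 and 463, and with apilimod added 737, 362, 296 and 128. Aurkb, the Aurora kinase of the centromere and the midzone, had the lowest share of its medium level under R848 at 7 h, 37.4%, and at 22 h read 66.9% with R848 and 17.7% with apilimod. Bub1b read 951 and 947 in medium at 0 h and 875, 802, 873 and 877 in medium at the later hours. Under R848 Bub1b read 904, 536, 454 and 619.9, with API09 added 851, 517, 457 and 571, and with apilimod added 852, 557, 429 and 255. Bub1b encodes the checkpoint protein BubR1, and its stimulated arrays lay below the medium arrays at 3, 7 and 22 h. Of the other kinases, 3 were among the 5 genes higher with apilimod at 7 h. These were Bub1, a checkpoint kinase at the kinetochore (0.70 ± 0.091, adjusted p = 0.000183), Plk4, which starts centriole duplication (0.40 ± 0.11, adjusted p = 0.0214), and Nek2 (0.37 ± 0.084, adjusted p = 0.00872). Bub1 read 1769 in medium at 7 h, 928 with R848, 833 with API09 and 1439 with apilimod, so the apilimod array lay between the controls and medium. Nek2 read 372, 378 and 489.9 on the same 3 stimulated arrays, and at 22 h 399, 420.1 and 90.0. It thus went from above the controls to below them, and this change of the apilimod effect (-2.37 ± 0.12) was the largest among the mitosis genes.

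The 5 checkpoint and anaphase regulators had median differences of -0.85 under R848 at 7 h, -0.57 under R848 at 22 h and -1.68 for apilimod against R848 controls at 22 h. Cdc20 read 2731 and 2580.4 in medium at 0 h and 2463, 2408, 2579 and 1781 in medium at the later hours. Under R848 Cdc20 read 2388, 1837, 1494 and 1272, with API09 added 2440.0, 1922, 1362 and 1114, and with apilimod added 2345, 1887, 1375 and 330.1. Cdc20, the activator of the anaphase-promoting complex that the checkpoint holds in check, was lower at 22 h than at 7 h in every arm. The fitted change from 7 to 22 h was -0.53 ± 0.12 in medium (adjusted p = 0.0147), -0.26 ± 0.085 on the R848 controls (adjusted p = 0.0225) and -2.01 ± 0.12 with apilimod (adjusted p = 4.45e-07). Ube2c read 3771 and 3873 in medium at 0 h and 3682, 3381, 3741 and 3148 in medium at the later hours. Under R848 Ube2c read 3676, 2739.7, 2089 and 2071, with API09 added 3611, 3001, 2239.7 and 1807, and with apilimod added 3616, 3033, 2353 and 563. Ube2c, the ubiquitin-conjugating enzyme of that complex, showed the lowest of its 18 levels with apilimod at 22 h. Espl1 read 295 and 276 in medium at 0 h and 271, 266, 283 and 228 in medium at the later hours. Under R848 Espl1 read 311, 199, 144 and 166, with API09 added 302, 225, 127 and 149, and with apilimod added 291, 207, 132 and 38.0. Espl1 encodes separase, the protease that cleaves cohesin. Its inhibitor securin, encoded by Pttg1, kept 83.1% of its medium level with R848 at 7 h, the highest share among the 43, and Espl1 kept 50.9%. With apilimod at 22 h the shares were 26.9% for Pttg1 and 16.7% for Espl1. Pttg1 read 6075 in medium, 4382 with R848, 4369.6 with API09 and 1631 with apilimod at 22 h. The 14 other genes of the anaphase-promoting complex, listed as its subunits, activators and enzymes, were also tested. At 22 h with apilimod 3 were lower and 1 was higher than on the R848 controls, where 14.3% of all genes were called lower and 20.2% higher, with a median of -0.07, and the 2 with the largest differences were Anapc7 (0.44 ± 0.10), a scaffold subunit, and Ube2s (-0.41 ± 0.11), the enzyme that extends ubiquitin chains.

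The 7 kinetochore and centromere genes had median differences of -1.10 under R848 at 7 h, -0.60 under R848 at 22 h and -1.23 for apilimod against R848 controls at 22 h. Cenpa read 2005 and 2036 in medium at 0 h and 2059.6, 1914, 2147 and 2134 in medium at the later hours. Under R848 Cenpa read 1933, 1611, 1215 and 1083, with API09 added 1829, 1591, 1142 and 963, and with apilimod added 1958, 1640.1, 1199 and 334. Cenpa, the histone H3 variant that marks the centromere, was lower under R848 at 22 h than at 7 h (-0.20 ± 0.079, adjusted p = 0.0457). Ndc80 read 284 and 258 in medium at 0 h and 249, 238, 317 and 335 in medium at the later hours. Under R848 Ndc80 read 246, 156, 147 and 206, with API09 added 242, 158, 132 and 163, and with apilimod added 274, 166, 161 and 68.9. Ndc80 encodes the microtubule-binding subunit of the outer kinetochore. It was higher on the R848 controls at 22 h than at 7 h (0.36 ± 0.10, adjusted p = 0.0107), and with apilimod it was lower at 22 h (-1.06 ± 0.15, adjusted p = 0.000113). The other subunits of the same complex, Nuf2, Spc24 and Spc25, had apilimod differences at 22 h of -1.95 ± 0.11, -1.36 ± 0.11 and -1.21 ± 0.11, beside -1.23 ± 0.13 for Ndc80.

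Cenpe read 392 and 375 in medium at 0 h and 338, 323, 342 and 215 in medium at the later hours. Under R848 Cenpe read 373, 246, 243 and 206, with API09 added 387, 257, 184 and 145, and with apilimod added 381, 272, 282 and 69.7. Cenpe, the kinetochore motor that gathers chromosomes at the spindle equator, was low in medium at 22 h, and there R848 against medium did not pass (-0.29 ± 0.18, adjusted p = 0.21). Its medium array at 22 h lay below the R848 and apilimod arrays at 7 h, so the groups overlap. Cenpf read 242 in medium at 22 h, 103 with R848, 72.2 with API09 and 32.3 with apilimod. The API09 array was thus below the R848 array, and the apilimod array below both. Cenpf kept 42.5% of its medium level with R848 and 29.9% with API09, the lowest shares of the 43 genes in those arms at 22 h.

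The 3 genes of the chromosomal passenger complex, which carries Aurora B, had median differences of -0.85 under R848 at 7 h, -0.65 under R848 at 22 h and -1.43 for apilimod against R848 controls at 22 h. Birc5 read 2117 and 2021 in medium at 0 h and 1918, 1889, 2051 and 1837 in medium at the later hours. Under R848 Birc5 read 1960.3, 1486, 987 and 1134, with API09 added 1897, 1494, 991 and 952, and with apilimod added 1906, 1421, 970.3 and 299. Birc5, which encodes survivin, was below its medium levels on every stimulated array from 3 h. Incenp read 2486 and 2578 in medium at 0 h and 2393, 2579, 2353 and 2246 in medium at the later hours. Under R848 Incenp read 2641, 1514, 1405 and 1530.3, with API09 added 2521, 1466, 1254 and 1325, and with apilimod added 2623, 1811, 1621 and 792. Incenp, the scaffold of the complex, had the smallest apilimod difference of the 43 at 22 h (-0.83 ± 0.11, adjusted p = 0.000156). Cdca8, which encodes borealin, was lower under R848 at 7 h (-0.85 ± 0.10, adjusted p = 7.51e-05) and did not pass at 22 h (-0.20 ± 0.10, adjusted p = 0.129).

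The 5 spindle motors and assembly factors had median differences of -0.91 under R848 at 7 h, -0.73 under R848 at 22 h and -1.30 for apilimod against R848 controls at 22 h. Nusap1 read 1192 and 1135 in medium at 0 h and 1151, 1009.8, 1116 and 1256 in medium at the later hours. Under R848 Nusap1 read 1104, 673, 419.5 and 583, with API09 added 1157, 680.2, 386 and 574, and with apilimod added 1188, 703, 464 and 191. Nusap1 had the largest fall under R848 at 7 h, when all 3 stimulated arrays were below all medium arrays. Kif11 read 595 and 583 in medium at 0 h and 543, 565, 663 and 533 in medium at the later hours. Under R848 Kif11 read 566, 299, 268 and 272, with API09 added 576, 329.5, 275 and 179, and with apilimod added 581, 350.5, 251 and 80.2. Kif11 encodes the motor that pushes the spindle poles apart, and its API09 array at 22 h was below its R848 array. Tpx2 read 1001 and 1001 in medium at 0 h and 959, 896, 904 and 740.4 in medium at the later hours. Under R848 Tpx2 read 991, 695, 624 and 847.7, with API09 added 939, 693, 593 and 755, and with apilimod added 969, 866, 839.5 and 372. Tpx2, the activator of Aurora A on the spindle, was 1 of 4 genes that did not pass for R848 against medium at 22 h, with Cdca8, Cenpe and Racgap1. The difference was 0.11 ± 0.095 (adjusted p = 0.37) and the R848 array read above the medium array. With apilimod it was higher at 7 h (0.45 ± 0.095, adjusted p = 0.00519) and lower at 22 h (-1.07 ± 0.095, adjusted p = 9.21e-06), and its 50.3% of the medium level at 22 h was the highest share of the 43. A dimmer probe set of Tpx2, with a mean intensity of 69.2, gave 0.18 for apilimod at 22 h, so the probe sets of this gene disagree there.

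The 7 central spindle and cytokinesis genes had median differences of -1.08 under R848 at 7 h, -0.65 under R848 at 22 h and -1.56 for apilimod against R848 controls at 22 h, and all 7 were called lower under R848 at 3 h. Prc1 read 674 and 670.2 in medium at 0 h and 589, 666, 697 and 528 in medium at the later hours. Under R848 Prc1 read 703, 513, 349 and 353, with API09 added 643, 517, 358 and 301, and with apilimod added 678, 499, 402 and 99.5. Prc1 bundles the antiparallel microtubules of the central spindle, and at 7 h its apilimod array read highest of the 3 stimulated arrays. Kif23 read 850.3 and 895 in medium at 0 h and 887, 816, 775 and 517 in medium at the later hours. Under R848 Kif23 read 910.0, 529.9, 443 and 373, with API09 added 885, 598, 408 and 281, and with apilimod added 897, 621, 569 and 125. Kif23, the motor of the centralspindlin complex, fell in medium from 7 to 22 h (-0.57 ± 0.16, adjusted p = 0.0427), and its medium array at 22 h lay within the range of the stimulated arrays at 7 h. Ect2 read 442 and 394 in medium at 0 h and 384, 360.4, 402 and 385 in medium at the later hours. Under R848 Ect2 read 360.4, 209.7, 216 and 251, with API09 added 363, 195, 187 and 278, and with apilimod added 387, 260.2, 216 and 45.6. Ect2, the exchange factor that activates RhoA for the contractile ring, had the largest apilimod difference of the 43 at 22 h (-2.19 ± 0.11, adjusted p = 1.96e-07).

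Kif20a, a motor needed for cytokinesis, had the lowest share of its medium level with apilimod at 22 h, 9.69%. It read 538 in medium, 277 with R848, 244 with API09 and 52.1 with apilimod. Racgap1, the partner of Kif23 in centralspindlin, read 824, 780.0, 774 and 784 in medium from 1 to 22 h. Under R848 Racgap1 read 815, 583, 365 and 798, with API09 814, 598, 333 and 688 and with apilimod 867, 634, 375 and 338. Its R848 control arrays were thus near the medium array at 22 h, and its apilimod array was about as low at 22 h as at 7 h. The rise on the R848 controls from 7 to 22 h was 1.05 ± 0.085 (adjusted p = 1.58e-06), the largest of the 43, whereas a second probe set of Racgap1 gave -0.37 for the same change. For apilimod at 22 h the 2 probe sets gave -1.10 and -1.48.

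Of the genes for chromosome structure, Top2a read 1822 and 1831 in medium at 0 h and 1862, 1763, 1936 and 1546 in medium at the later hours. Under R848 Top2a read 1846, 1392, 890.1 and 1178, with API09 added 1833, 1391, 715 and 1031, and with apilimod added 1849.8, 1477, 911 and 288. Top2a encodes the topoisomerase that untangles sister chromatids, and it was lower under R848 at 7 h (-1.26 ± 0.12, adjusted p = 1.88e-05). Mki67 read 1963 and 2055 in medium at 0 h and 1885, 1949, 1646 and 1003 in medium at the later hours. Under R848 Mki67 read 2077, 1131, 782 and 728, with API09 added 2095, 1156, 621 and 625, and with apilimod added 2150.3, 1465, 884 and 255. Mki67, the Ki-67 protein that coats mitotic chromosomes and marks dividing cells, was lower in medium at 22 h than on any earlier medium array, and the stimulated arrays at 7 h were lower still. The difference in medium from 0 to 22 h was -0.99 ± 0.13 (adjusted p = 0.000544). Mki67 was also lower on the R848 controls than in medium at 22 h (-0.56 ± 0.13, adjusted p = 0.00511) and lower again with apilimod (-1.35 ± 0.13, adjusted p = 1.86e-05).

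**Figure D3:**
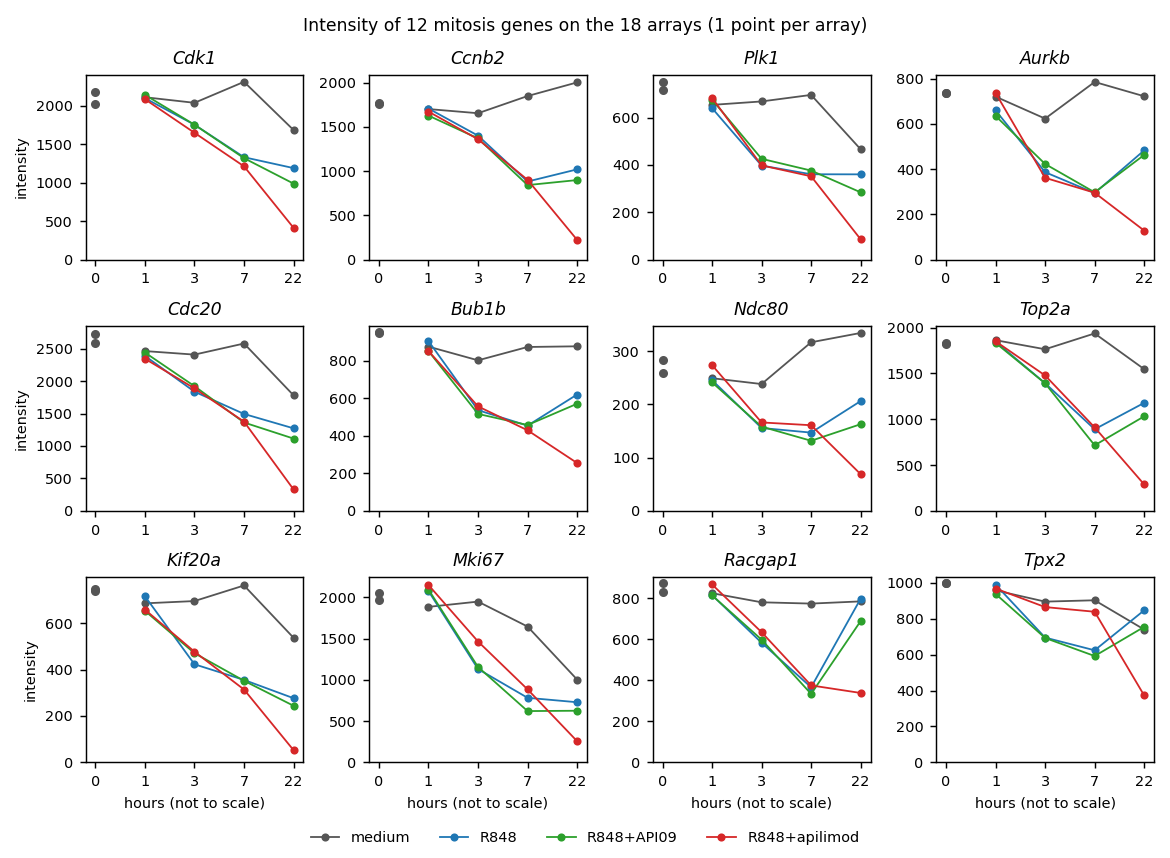
Intensity of 12 mitosis genes against hours (not to scale), with 1 point per array and 1 line per arm. In each of the 12 panels the R848+apilimod point at 22 h lies below the other arms, while at 7 h it lies near the other stimulated arms except for Tpx2, where it lies near medium.

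The unstimulated culture was compared with its start to set these falls beside drift in medium. No mitosis gene was called in medium at 1, 3 or 7 h against 0 h in limma, while 1, 7 and 2 of them passed an unadjusted p of 0.05, and 0.408%, 0.971% and 0.343% of all genes were called. At 22 h 12 were lower and none was higher, with 10.8% of all genes called lower. They were Bub1, Cdc20, Cdca8, Cenpe, Cenpf, Foxm1, Kif20a, Kif23, Mki67, Plk1, Prc1 and Tpx2, led by Mki67, and the highest difference was that of Ndc80 (0.29 ± 0.13, adjusted p = 0.132). The median over the 43 was -0.22. This count was 5 without either medium array at 0 h and 21 without the R848+API09 array at 22 h, which enters the estimate of the spread. For 25 of the 43 genes the medium array at 22 h was below the other 5 medium arrays, which held for 30% of all genes. From 7 to 22 h in medium, 6 fell (Cdc20, Cdk1, Kif20a, Kif23, Mki67 and Plk1), against 6.11% of all genes called lower, with Mki67 at -0.71 ± 0.15 and Cdc25b, the highest, at 0.35 ± 0.12 (not called). That count was 15 without the R848+API09 array at 22 h.

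Between 7 and 22 h the mitosis genes moved in both directions on the R848 controls. Of the 43 genes, 20 were higher at 22 h than at 7 h, 6 were lower and 17 did not pass, against 29.8% of all genes called higher and 29.2% called lower. The 6 that were lower were Cdc20, Cdk1, Cenpa, Cenpf, Kif20a and Kif23, of which 4 had also fallen in medium, and Cenpf was lowest (-0.64 ± 0.15, adjusted p = 0.00334). Of the 25 genes with several kept probe sets, 9 had at least 1 set of opposite sign for this change, namely the called genes Bub1, Bub1b, Spc25, Tpx2, Racgap1 and Top2a and the genes Incenp, Kif2c and Anln that did not pass. The widest gaps were those of Racgap1, given above, Tpx2 (-1.09 against 0.39) and Bub1 (-0.83 against 0.53). With apilimod no gene was higher at 22 h than at 7 h and 42 were lower, against 24.7% of all genes called lower. The largest of these falls was that of Kif20a (-2.28 ± 0.12, adjusted p = 2.17e-07), and Racgap1 did not pass (-0.14 ± 0.12, adjusted p = 0.349). The R848 effect against medium was less negative at 22 h than at 7 h for 15 genes and more negative for none, with 10.3% of all genes called higher, a median of 0.37 and the highest value for Racgap1 (1.03 ± 0.15, adjusted p = 0.000693). The count of 15 became 28 without the R848+API09 array at 22 h, 28 when the R848 arrays alone were the controls, 27 with arrays centred on their median and 26 after quantile normalization. The share of all genes called was not counted in these fits. For this difference of effects the median of all genes was 0.02 in the main fit. It was 0.16 after centring and 0.09 after quantile normalization. Centring raised the median of all genes for R848 against medium at 22 h by 0.22. Of the 43 mitosis genes 32 were then lower in place of 39, with a median of -0.35.

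Set against medium, R848+apilimod gave 0 of 43 genes called at 1 h in limma, with 0 at an unadjusted p of 0.05 and 0.604% of all genes called. At 3 h 22 were lower, at 7 h 38 and at 22 h 43, against 9.64%, 19.1% and 25.8% of all genes called lower, and none was higher. The lowest at 3 h was Ttk, a checkpoint kinase (-0.80 ± 0.16, adjusted p = 0.00611), at 7 h Aurkb (-1.36 ± 0.10, adjusted p = 2.16e-06) and at 22 h Ccnb2, while Tpx2 had the smallest difference at each of these hours (-0.05 ± 0.11, -0.10 ± 0.11 and -0.96 ± 0.11). The count at 3 h was 13 without either medium array at 0 h. The median at 22 h was -2.08, which is 4.22-fold. Expressed as a share of the medium level of the same hour, the median gene stood at 50.9% with R848, 47.1% with API09 and 50.8% with apilimod at 7 h. At 22 h the medians were 70.7%, 61.0% and 20.6%. The shares at 22 h ran from 42.5% (Cenpf) to 114.5% (Tpx2) with R848, from 29.9% (Cenpf) to 102.0% (Tpx2) with API09 and from 9.69% (Kif20a) to 50.3% (Tpx2) with apilimod. Apilimod against medium and apilimod against the R848 controls share the apilimod arrays, and R848 against medium shares the other arrays with both, so these comparisons are not independent.

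**Figure D4:**
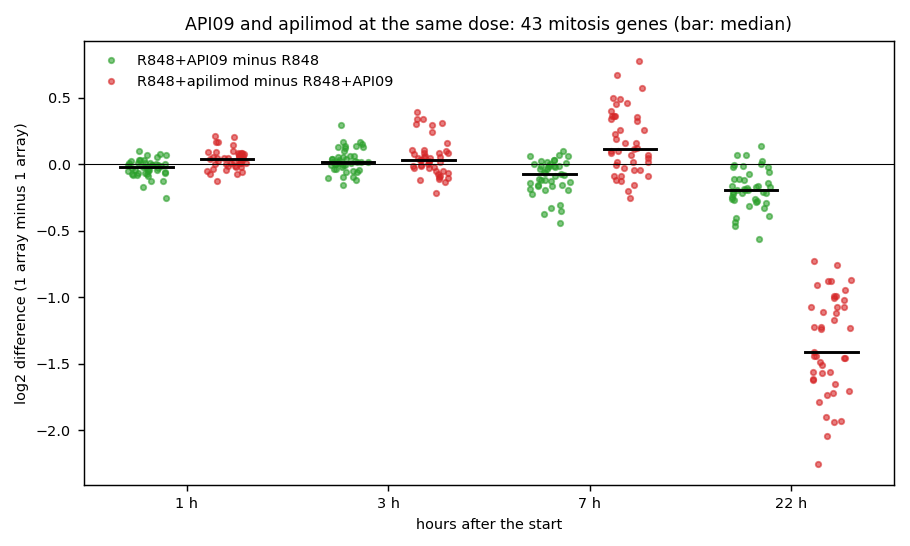
Log2 difference between single arrays of the same hour for the 43 mitosis genes, with R848+API09 minus R848 in green and R848+apilimod minus R848+API09 in red; each point is a gene and each bar a median. Both medians lie near 0 from 1 to 7 h. At 7 h the green points run from -0.44 to 0.10 and the red from -0.26 to 0.78, and at 22 h the red points lie between -2.26 and -0.73.

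Apilimod and its inactive analog were given at the same dose and hours and were compared, like the other arms, over all hours in a fit that models the arms additively and takes the hours as blocks. All 6 pairs of arms were compared, and each p-value was adjusted over the 12257 genes of its pair. API09 against R848 gave 0 of 43 genes called, as did apilimod against API09 and apilimod against R848, with 0% of all genes called and 0 mitosis genes at an unadjusted p of 0.05 in each pair. The median differences were -0.08, -0.29 and -0.36. For API09 against R848 the values ran from -0.23 (Cenpf) to 0.07 (Foxm1), and the 95% interval was -0.58 to 0.46 for Cdk1 and -0.81 to 0.73 for Kif20a. For apilimod against API09 Kif20a had -0.51 ± 0.35, with an interval of -1.28 to 0.25. Effects that change with the hour enter the spread of this fit and widen its intervals, which do not show that the arms act alike. Against medium, R848 gave 0 genes called (8 at an unadjusted p of 0.05; 0.995% of all genes), API09 0 (15 unadjusted; 2.71% of all genes) and apilimod 15 lower (8.84% of all genes called lower). The 15 became 2 without either medium array at 0 h, 8 without the R848+API09 array at 22 h, 34 without the arrays at 1 h and 0 without those at 3, 7 or 22 h. Without the arrays at 1 h, 1 mitosis gene was lower with R848 than in medium and 4 were lower with R848 and API09.

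Hour by hour, apilimod read below API09 for 11, 17, 12 and 43 of the 43 genes at 1, 3, 7 and 22 h, with median differences of 0.04, 0.03, 0.11 and -1.41. At 22 h these differences ran from -2.26 to -0.73. API09 read below R848 for 28, 16, 32 and 38 of the 43, with medians of -0.02, 0.02, -0.07 and -0.19, while the median over all genes for API09 against R848 at 22 h was -0.12. In a fit added after the values were seen, which takes the spread from the 2 medium arrays at 0 h alone, no mitosis gene was called for API09 against R848 at 1, 3 or 7 h (1, 1 and 8 at an unadjusted p of 0.05 in limma). At 22 h 13 were lower, which is 30.2% of the 43 against 26% of all genes called lower, so the share lay near the background. Each of these comparisons is of 1 array with 1 array, and their p-values hold no spread within either arm. The API09 array at 22 h also had the lowest median of the genes tested, 7.03 against 7.19 to 7.38 on the other 17, and the highest 18S level. Its part in the difference was not tested. With R848 alone or API09 alone as the control, apilimod is again 1 array against 1 and the spread again comes from the medium pair at 0 h alone. In these fits 43 of 43 genes were lower at 22 h. The share of all genes called was not counted in them, so that count has no background beside it. At 7 h the differences of apilimod from API09 alone ran from -0.26 to 0.78, with the median of 0.11 given above.

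Further genes of the division cycle, listed by function, were counted in the same fits. Under R848 at 3, 7 and 22 h, 9.19%, 18.5% and 29.1% of all genes were called lower and 6.23%, 11.3% and 16.5% higher. With apilimod against the R848 controls, 9.81% were called lower and 9.81% higher at 7 h, and 14.3% lower and 20.2% higher at 22 h. Of 50 other mitosis genes, 26 were lower under R848 at 3 h, 45 at 7 h and 40 at 22 h, when 2 were higher, and the medians were -0.40, -0.95 and -0.55. The largest differences at 7 h were those of Cenpk (-1.75 ± 0.11), a centromere protein, and Cdca5 (-1.55 ± 0.10), the cohesin protector sororin. With apilimod at 22 h 43 of the 50 were lower, with a median of -1.04, led by the kinase Pbk (-2.10 ± 0.098) and the condensin subunit Smc2 (-1.93 ± 0.14). Of 35 DNA replication genes, 21, 34 and 19 were lower under R848 at 3, 7 and 22 h and none was higher, with medians of -0.46, -1.13 and -0.32. Tk1, thymidine kinase, led at 7 h (-2.60 ± 0.088), ahead of Gins1 of the replicative helicase (-1.57 ± 0.14). From 7 to 22 h 25 of the 35 were higher and 4 lower on the R848 controls, with a median of 0.54, beside 0.17 for the mitosis genes. With apilimod 31 of the 35 were lower at 22 h (median -1.07), and at 7 h 2 were higher and 7 lower, with Ccne2, a cyclin E, at -1.08 ± 0.11 and the licensing factor Cdt1 at 0.80 ± 0.084.

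**Figure D5:**
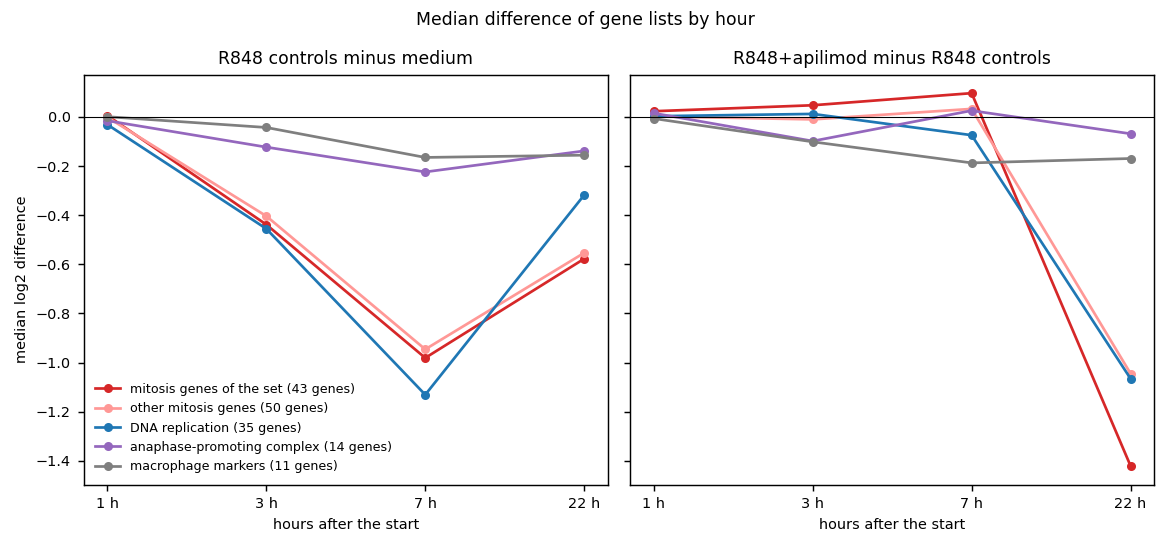
Median log2 difference of the mitosis genes and of 4 further lists at each hour, for R848 controls against medium and for R848+apilimod against R848 controls; each point is the median over the tested genes of a list. The mitosis, other mitosis and DNA replication lists reach their lowest medians at 7 h under R848 and at 22 h with apilimod.

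Of 22 regulators of these genes, namely E2F factors, MuvB subunits, Rb family members and NF-Y subunits, 8 were lower under R848 at 3 h, 14 at 7 h and 13 at 22 h, against 9.19%, 18.5% and 29.1% of all genes, while E2f5 was higher at 7 h (0.30 ± 0.099) and at 22 h (0.68 ± 0.099). The largest fall at 3 h was that of E2f8, a repressor of the family (-1.47 ± 0.12), and at 7 h that of Rbl2, the p130 pocket protein (-1.70 ± 0.14). With apilimod at 22 h 10 were lower, against 14.3% of all genes, including Mybl2, the activating partner of MuvB (-1.64 ± 0.16), E2f8 (-1.48 ± 0.12) and the E2F partner Tfdp1 (-1.31 ± 0.098), while the MuvB subunit Lin37 was higher (0.42 ± 0.14). Mybl2 read 369, 344, 347 and 199 in medium from 1 to 22 h, 344, 196, 108 and 160.0 with R848, 317, 220.2, 115 and 109.6 with API09 and 342, 188, 90.3 and 31.7 with apilimod. It was lower in all 3 stimulated arms at 7 h, and lowest with apilimod at 22 h.

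Of 13 Cdk inhibitors and other brakes on division, 3 rose under R848 at 1 h, when no mitosis gene was called and 0.636% of all genes were called higher. These were Btg2 (3.20 ± 0.13), an antiproliferative gene, and the stress genes Gadd45a (1.11 ± 0.10) and Gadd45b (0.99 ± 0.13). At 3 h 5 were higher and 5 lower, against 6.23% of all genes called higher and 9.19% called lower. Gadd45b (3.22 ± 0.13), Gadd45a (2.45 ± 0.10), Btg2 (1.79 ± 0.13), Btg1 (0.82 ± 0.091) and Cdkn1a (0.88 ± 0.095), which encodes the Cdk inhibitor p21, were higher. Cdkn2c, encoding p18 (-0.99 ± 0.096), Cdkn1b, encoding p27 (-0.95 ± 0.091), Ccng2 (-0.87 ± 0.13), Wee1 (-0.80 ± 0.17) and Cdkn2d (-0.65 ± 0.084) were lower. Levels at 7 h in medium, with R848 and with API09 again differed in both directions. Cdkn1a read 2095, 1743 and 1805 and Cdkn2c 692, 232 and 229, whereas Gadd45a read 19.8, 131 and 130 and Gadd45b 132, 1046 and 1284. At 22 h Gadd45a (3.35 ± 0.10) and Gadd45b (2.90 ± 0.13) were still the highest of the list. Apilimod against the R848 controls lowered Cdkn1a at 3 h (-0.79 ± 0.095) and 7 h (-0.44 ± 0.095), and at 22 h Cdkn1a did not pass (-0.15 ± 0.095, adjusted p = 0.266). Cdkn1a read 1707 in medium at 22 h, 2133 with R848, 2271 with API09 and 1987 with apilimod. At 22 h apilimod left 3 of the 13 higher, Gadd45b (0.65 ± 0.13), Btg1 (0.61 ± 0.091) and Gadd45g (0.48 ± 0.16), and 3 lower, Ccng2 (-0.67 ± 0.13), Cdkn2d (-0.30 ± 0.084) and Pkmyt1 (-0.29 ± 0.099). Among all genes 20.2% were called higher and 14.3% lower there, so these counts lay near the background. In medium Ccng2 (2.47 ± 0.13) and Cdkn1b (1.18 ± 0.091) had risen most of the list by 22 h.

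The 7 genes of G1 cyclins and Cdks, with Myc, did not move together. Under R848 Myc, a transcription factor that promotes growth, rose at 3, 7 and 22 h (1.38 ± 0.14, 2.27 ± 0.14 and 2.26 ± 0.14), and Cdk2 fell (-0.67 ± 0.083, -0.92 ± 0.083 and -0.36 ± 0.083). Apilimod lowered 6 of the 7 at 7 h, against 9.81% of all genes called lower. None of the 43 mitosis genes was lower then. Ccnd1, encoding cyclin D1, showed the largest difference (-1.36 ± 0.13), followed by Ccnd3 (-1.08 ± 0.093), Myc (-0.96 ± 0.14), Cdk6 (-0.91 ± 0.12), Cdk2 (-0.39 ± 0.083) and Ccnd2 (-0.36 ± 0.095), and Cdk4 was higher (0.37 ± 0.12). Ccnd1 read 2589, 2389.9, 2060.3 and 941 in medium from 1 to 22 h, 2461, 2024, 1404 and 618 with R848, 2366, 1773, 1485 and 779 with API09 and 2452, 1231, 554 and 443 with apilimod. Its apilimod array was the lowest of the 4 at 3, 7 and 22 h. At 22 h Cdk2 (-0.70 ± 0.083), Ccnd1 (-0.63 ± 0.13) and Ccnd3 (-0.56 ± 0.093) were lower with apilimod and Cdk6 was higher (0.71 ± 0.12).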

How the data were processed

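RNA of RAW cells was amplified with the NuGEN Ovation system and hybridised to Affymetrix mouse 430 2.0 arrays, per the labels' protocols and the probe annotation. The authors deposited 1 intensity per probe set and array on a linear scale. Per the submitters' processing notes limma was used, its role unstated. How background was corrected and how probe sets were summarised and normalized is not given in the sources used here. The values were taken as normalized by the authors, since array medians lay between 17.5 and 19.2.

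The 44 genes, the role groups and the further lists were chosen with earlier results of these data known. Probe sets listed with several symbols were left out (932 of 45101). Probe sets above 18.1 (the median over the whole table) on 3 or more arrays were kept, and the brightest kept set on average stood for its gene, for 12257 genes. Intensities were tested as log2(intensity + 16) in R 4.3.3 with limma 3.58.1. The fit within hours had 1 mean per arm and hour, with R848 alone and R848+API09 sharing a mean in each hour and the 2 medium arrays at 0 h sharing another, and 5 residual degrees of freedom. The fit over all hours had arm terms and an hour block, and 10. Arrays without a partner are taken to be as variable as the pairs, and the number of arrays limits the precision. Members given values on every array were listed by name, to which the largest rise and fall of each comparison were added. Both fits were also run on simulated data with independent noise at the fitted spread. That setting holds no effects of single arrays, so it cannot show how the fits do on these arrays. Alternatives covered normalization, filter, pseudocount, probe set rule, variance model, controls and left-out arrays or hours.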

Additional observations from a re-analysis of the deposited data

Results flagged for a closer look

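The apilimod effect on the mitosis genes differed between 7 and 22 h. Tested as the difference of the 2 effects, it was lower at 22 h for 43 of 43 genes, with a median of -1.594 on the log2 scale. The effect at 7 h had 5 genes higher (11.6% of the 43, against 9.81% of all genes called higher) and none lower, so its count was near the background. The effect at 22 h had 43 lower, against 14.3% of all genes called lower.

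The R848 effect against medium also differed between these hours, being less negative at 22 h for 15 of the 43 genes, with a median of 0.3651. Both differences rest on 1 medium array, 1 R848+apilimod array and 2 R848 control arrays at each hour. No group held the 4 arrays needed to look for a single deviating array.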

How the results depend on the processing

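Of 342 counts of called mitosis genes under the alternatives, 288 stayed within 1.5 times the count reported. Of 5109 values of single genes, 4846 kept their direction and side of the threshold, 261 of the rest lost the call, and 2 reversed, both for R848 controls at 22 h against 7 h with the mean over probe sets (Bub1 -0.15 and Tpx2 -0.040). Part of this agreement was fixed in advance. Trended variances change no difference, and leaving out a medium array at 0 h changes none that does not use that hour. A count of 0 that stayed 0 also entered as unchanged. The counts that did not stay within 1.5 times moved as follows, with higher and lower calls counted together. Where no construction is named the cause was not tested. The share of all genes called was not counted under the alternatives, so these counts have no background beside them. For apilimod against R848 controls at 7 h, Pttg1 was called lower after quantile normalization (-0.24) and with trended variances (-0.21).

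Apilimod against R848 controls at 3 h (1 gene) gave 2 with the stricter filter, 0 with the mean over probe sets, 5 with trended variances, 0 with a pseudocount of 1, 3 with R848 alone, 6 with API09 alone, 0 to 0 without a medium array at 0 h and 4 without the API09 array at 22 h. At 7 h (5) it gave 8 after quantile normalization, 8 after centring, 9 with trended variances, 16 with API09 alone and 11 without the API09 array at 22 h. Apilimod against medium at 3 h (22) gave 13 with a pseudocount of 1, 36 with R848 alone, 36 with API09 alone and 13 to 13 without a medium array at 0 h. Medium at 22 h against 7 h (6) gave 11 after quantile normalization, 10 after centring, 10 with trended variances, 20 with R848 or API09 alone and 15 without the API09 array at 22 h. Medium at 3 h against 0 h (0) gave 1 after quantile normalization, with no filter, with the stricter filter and with trended variances, and 2 with R848 or API09 alone and without the API09 array at 22 h. Medium at 22 h against 0 h (12) gave 25 with R848 or API09 alone, 5 to 5 without a medium array at 0 h and 21 without the API09 array at 22 h. The R848 effect at 22 h minus 7 h (15) gave 26 after quantile normalization, 27 after centring, 28 with R848 alone and 28 without the API09 array at 22 h. Over all hours R848 against medium (0) gave 1 and API09 against medium (0) gave 4 without the arrays at 1 h. Apilimod against medium (15) gave 7 after centring, 2 with no filter, 23 with the stricter filter, 2 to 2 without a medium array at 0 h, 8 without the API09 array at 22 h, 34 without 1 h, 0 without 3, 7 or 22 h and 0 with no hour block.

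No analysis paired by replicate was possible because each arm had 1 array at every hour after 0 h. This concerns pairing of replicates only, since the fit over all hours does match the arms by hour. With R848 or API09 alone as the control, the spread comes from the 2 medium arrays at 0 h alone. Single arrays on 1 side of most comparisons limit the precision, and the added 16 compresses differences of dim probe sets.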
